A study of Mus musculus with 10 samples.

Results

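Haemoglobin and red cell genes were examined as a measure of blood content in mouse mammary tumours. The group consisted of 6 genes, selected by symbol from the 37882 genes of the deposited count table: the adult alpha globins Hba-a1 and Hba-a2, the adult beta globins Hbb-bs and Hbb-bt, Alas2 and Slc4a1. All 6 were found, and 5 of the 6 passed the filter on low counts. The tumours were orthotopic grafts of the MCa-M3C mouse mammary line in FVB/N hosts and entered treatment at a volume near 100 mm3. The TMA-ARB group (n = 5, replicates 6 to 10) received valsartan, a blocker of the angiotensin II type 1 receptor, in what the labels call its TMA-ARB form, at 40 mg/kg by retro-orbital injection on each of 6 days. The Control group (n = 5, replicates 1 to 5) received the same volume of PBS on the same days. All tumours came from the same cell line and host strain. Whether the 10 libraries stand for 10 animals is not in the labels, and ages are not given, so the tests reflect only how far the libraries spread.

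In the adult mouse, haemoglobin is assembled from alpha and beta globin chains, each holding a haem group. Mature red cells have lost their nucleus, but young red cells in blood still carry globin mRNA, so globin reads in a tissue are commonly taken as a sign of blood. Alas2 encodes the erythroid form of the enzyme that starts haem synthesis, and Slc4a1 encodes band 3, the anion exchanger that anchors the red cell skeleton to the membrane. In bulk tumour RNA, fewer red cells and less globin mRNA per cell cannot be told apart.

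Total counts per library ran from 12742953 to 15468825 under TMA-ARB and from 14266136 to 16884621 in Control. Of 10 mammary epithelial markers all were in the table and 7 passed the filter. Cldn3, Cldn4 and Cldn7 were below it, with counts in 5, 3 and 3 libraries. The summed level was 144 to 282 CPM under TMA-ARB and 118 to 204 CPM in Control. Krt18 was the largest part, at means of 131 CPM under TMA-ARB and 101 CPM in Control, followed by Erbb2 at 41.3 and 38.5. Epcam, at 3.30 and 1.95 CPM, and Cdh1, at 5.63 and 7.03 CPM, were far lower. No 2 libraries were identical. Mitochondrially encoded genes took 10.5% ± 9.12 of counts under TMA-ARB and 4.19% ± 2.21 in Control (SD, n = 5 each; two-sided exact permutation p = 0.143). Their share was above 5% in TMA-ARB replicates 8, 9 and 10 and in Control replicates 3 and 4.

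The copies of each globin are so alike that their separate values need care, and the part of each coding sequence that holds the differences is shown for that reason. Hba-a1 (ENSMUSG00000069919) lies on chromosome 11 from 32283511 to 32284465 and Hba-a2 (ENSMUSG00000069917) from 32296489 to 32297298, both on the plus strand in GRCm38 (mm10). Hbb-bs (ENSMUSG00000052305) lies on chromosome 7 from 103826534 to 103828096 and Hbb-bt (ENSMUSG00000073940) from 103812524 to 103813996, both on the minus strand. Each globin gene has 3 exons. The alpha coding sequences are 429 bases long and differ at 1 base, C381T from Hba-a1 to Hba-a2. The beta coding sequences are 444 bases long and differ at 1 base, C417T from Hbb-bs to Hbb-bt. Positions are counted from 1 at the start codon. Below are coding bases 351 to 410 of the alpha pair and 385 to 444 of the beta pair from the GENCODE transcripts, with the differing base in capitals.
Hba-a1: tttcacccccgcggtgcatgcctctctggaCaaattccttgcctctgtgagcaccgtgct
Hba-a2: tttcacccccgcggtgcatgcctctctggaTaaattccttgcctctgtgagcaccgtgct
Hbb-bs: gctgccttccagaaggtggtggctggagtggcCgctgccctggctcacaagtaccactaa
Hbb-bt: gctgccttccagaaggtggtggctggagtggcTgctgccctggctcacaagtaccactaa

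Over the whole transcripts, UTRs included, 71.3% of the 31-base words of Hba-a1 also occur in Hba-a2, and 91.0% of those of Hba-a2 occur in Hba-a1. For the beta pair the shares were 66.9% of Hbb-bs words and 59.4% of Hbb-bt words, and each alpha transcript shared 0 words with each beta transcript. Reads of a pair can be divided between its copies by the counting, and the pair sums are given beside each copy. The reference is the C57BL/6J genome while the hosts were FVB/N, so the strain's own copies may differ from the sequences shown.

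The promoters of the 4 globins are shown with that of Alas2 because these 5 genes share erythroid control in textbook accounts and were measured together here. Promoter sequences were matched for 5 of the 6 genes, all but Slc4a1, and are the 250 bases before the RefSeq start in GRCm38.p6. The GENCODE gene starts lie farther out, so each window overlaps its GENCODE gene in part. For Hba-a1 the window ends at 32283671, while the GENCODE gene starts at 32283511. Capitals mark GATAA (the core bound by GATA factors), CACCC (bound by KLF factors), CCAAT and TATAA, each on either strand.
Hba-a1 (chr11:32283422-32283671, plus strand): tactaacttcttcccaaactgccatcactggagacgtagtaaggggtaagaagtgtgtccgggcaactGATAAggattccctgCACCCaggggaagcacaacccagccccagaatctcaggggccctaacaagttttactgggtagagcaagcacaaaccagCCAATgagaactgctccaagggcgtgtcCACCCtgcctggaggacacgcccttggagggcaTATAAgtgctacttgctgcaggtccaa
Hba-a2 (chr11:32296242-32296491, plus strand): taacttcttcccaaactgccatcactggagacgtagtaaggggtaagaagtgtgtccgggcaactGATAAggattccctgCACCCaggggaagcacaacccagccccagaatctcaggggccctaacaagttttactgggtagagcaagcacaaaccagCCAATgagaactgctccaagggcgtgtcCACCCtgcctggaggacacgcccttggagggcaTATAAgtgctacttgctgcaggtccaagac
Hbb-bs (chr7:103827929-103828178, minus strand): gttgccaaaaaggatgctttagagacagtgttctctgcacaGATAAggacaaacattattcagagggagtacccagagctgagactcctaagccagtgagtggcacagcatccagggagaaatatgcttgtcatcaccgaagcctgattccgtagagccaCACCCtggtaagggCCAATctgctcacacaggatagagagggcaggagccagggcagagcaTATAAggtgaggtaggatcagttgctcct
Hbb-bt (chr7:103813924-103814173, minus strand): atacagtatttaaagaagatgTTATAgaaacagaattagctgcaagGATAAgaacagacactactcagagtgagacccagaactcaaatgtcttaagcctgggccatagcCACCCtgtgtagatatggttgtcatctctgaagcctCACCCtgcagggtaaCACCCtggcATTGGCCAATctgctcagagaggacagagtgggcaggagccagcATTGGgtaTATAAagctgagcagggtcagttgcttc
Alas2 (chrX:150547167-150547416, plus strand): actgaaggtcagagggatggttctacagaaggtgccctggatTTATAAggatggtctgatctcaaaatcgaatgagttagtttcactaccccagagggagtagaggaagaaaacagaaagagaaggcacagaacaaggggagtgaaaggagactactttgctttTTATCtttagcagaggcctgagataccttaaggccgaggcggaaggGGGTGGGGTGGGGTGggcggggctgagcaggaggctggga

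The Hba-a1 and Hba-a2 promoters were identical over the 247 bases that align, at an offset of 3 bases. All 4 globin promoters held all 4 motifs, each once in Hbb-bs. The TATAA site nearest the start began 27 bases before it in Hba-a1, 30 in Hba-a2, 29 in Hbb-bs and 28 in Hbb-bt. Alas2 held GATAA 86 to 82 bases before its start and 3 CACCC sites, all on the minus strand, and a TATAA site 207 bases before it that overlaps its own reverse complement; CCAAT was not among these letters. In Hbb-bt a pair of CCAAT sites on opposite strands adjoin. Of 32851 promoter windows of this length, 22.6% held GATAA, 52.0% CACCC, 33.8% CCAAT and 22.8% TATAA, and 0.968% held all 4. These matches are a description of the letters and not of factor binding.

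The comparison asks whether the blood content measured by these genes differed between tumours given TMA-ARB and tumours given PBS. None of the 5 tested genes passed edgeR's quasi-likelihood test. All 5 had a negative log2 fold change, as did 47.2% of all genes tested, but for Hba-a1, Hbb-bs and Hbb-bt the sign of the fold change turned without Control replicate 2, the library with the most globin. EdgeR called 0% of all 14063 genes tested (0 at an adjusted p under 0.05), with 457, or 3.25%, at an unadjusted p under 0.05. DESeq2 called 2 of 23897 genes (826 at an unadjusted p under 0.05) and limma-voom 0 of 14063 (1396 at that level). None of the genes called was 1 of the 6 genes. Of the 5 genes 0 had an unadjusted p under 0.05 in edgeR, where 1.66% of all genes were lower under TMA-ARB at that level, and DESeq2 and limma-voom each had 1, Alas2. All 5 groups of values overlapped, and over all genes 0.526% had groups that did not.

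**Figure D1:**
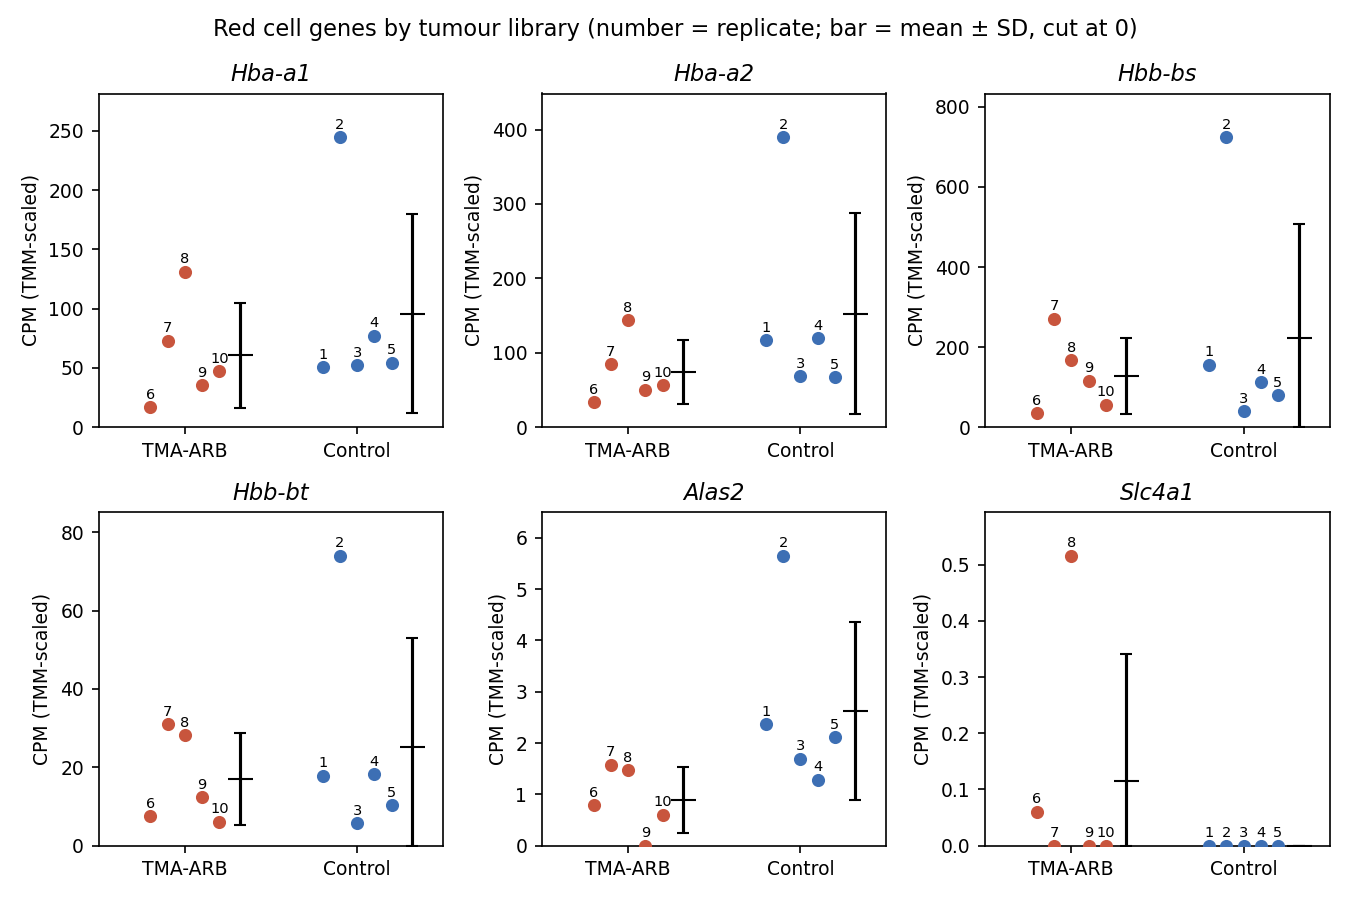
Level of each of the 6 genes in CPM, the counts relative to the library total scaled by edgeR's TMM factors, in every tumour library, TMA-ARB left and Control right, numbered by replicate, with the mean and SD beside the points. Control replicate 2 is the highest library for the 4 globins and Alas2, at 725 CPM for Hbb-bs, and Slc4a1 is at 0 in 8 of 10 libraries.

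Hba-a1 measured 16.8, 73.1, 131, 35.7 and 47.1 CPM in TMA-ARB replicates 6 to 10, against 50.8, 245, 52.2, 77.1 and 54.3 CPM in Control replicates 1 to 5. TMA-ARB replicates 6, 9 and 10 lay below every Control. Of the rest, replicate 7 lay among 4 Controls that sat close together and replicate 8 above those 4. Control replicate 2 stood alone at the top. The means were 60.8 ± 44.3 CPM under TMA-ARB and 95.9 ± 84.0 CPM in Control (SD, n = 5 each), a log2 fold change of -0.66 ± 0.60 (SE; 95% interval -1.99 to 0.68; edgeR adjusted p = 0.997). Without Control replicate 2 it was 0.051.

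Hba-a2 measured 33.8, 84.3, 144, 50.5 and 56.6 CPM in TMA-ARB replicates 6 to 10, against 117, 390, 68.3, 120 and 67.3 CPM in Control replicates 1 to 5. TMA-ARB replicates 6, 9 and 10 lay below every Control, and replicates 7 and 8 lay among them. The log2 fold change was -1.05 ± 0.54 (SE; 95% interval -2.24 to 0.15; edgeR adjusted p = 0.997), and -0.34 without Control replicate 2. The summed alpha globins, which the division of reads between the copies cannot alter, averaged 135 ± 87.4 CPM under TMA-ARB and 248 ± 218 CPM in Control (SD, n = 5 each), and 152 ± 37.4 CPM in the 4 other Controls without replicate 2.

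Hbb-bs, the more abundant beta globin, measured 34.4, 271, 167, 116 and 56.5 CPM in TMA-ARB replicates 6 to 10, against 156, 725, 40.5, 112 and 79.4 CPM in Control replicates 1 to 5. Apart from Control replicate 2, the highest libraries were TMA-ARB replicates 7 and 8, and the lowest was TMA-ARB replicate 6. The means were 129 ± 94.9 CPM under TMA-ARB and 223 ± 284 CPM in Control (SD, n = 5 each), a log2 fold change of -0.79 ± 0.83 (SE; 95% interval -2.64 to 1.07; edgeR adjusted p = 0.997). Without Control replicate 2 the direction was opposite, at 0.41.

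Hbb-bt, the less abundant beta copy, measured 7.56, 31, 28.2, 12.4 and 6.14 CPM in TMA-ARB replicates 6 to 10, against 17.9, 74.1, 5.68, 18.2 and 10.4 CPM in Control replicates 1 to 5. The groups were interleaved, with a Control the lowest library and TMA-ARB replicates 7 and 8 next below Control replicate 2. Its log2 fold change was -0.57 ± 0.71 (SE; 95% interval -2.13 to 1.00; edgeR adjusted p = 0.997), and 0.39 without Control replicate 2. Summed beta globin averaged 146 ± 106 CPM under TMA-ARB and 248 ± 312 CPM in Control (SD, n = 5 each), and 110 ± 54.6 CPM in the 4 other Controls.

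Alas2 (ENSMUSG00000025270, chromosome X, 150547375 to 150570638, plus strand, 11 exons) was the red cell gene with the lowest level relative to Control. It held 13, 24, 20, 0 and 9 counts in TMA-ARB replicates 6 to 10, against 36, 101, 26, 18 and 35 counts in Control replicates 1 to 5. As CPM these were 0.786, 1.58, 1.47, 0 and 0.607 under TMA-ARB, against 2.36, 5.66, 1.70, 1.29 and 2.12 in Control. All 5 TMA-ARB libraries lay below the Control median, and replicates 7 and 8 overlapped the lowest Control, replicate 4. The 0 in TMA-ARB replicate 9 allows up to 3 counts, or 0.307 CPM. The means were 0.889 ± 0.651 CPM under TMA-ARB and 2.62 ± 1.74 CPM in Control (SD, n = 5 each), a log2 fold change of -1.54 ± 0.72 (SE; 95% interval -3.08 to 0.0061; unadjusted p = 0.0508; edgeR adjusted p = 0.997). Unlike the globins Hba-a1, Hbb-bs and Hbb-bt, it was negative in every alternative tried, at -1.05 without Control replicate 2 and nearest to 0, at -0.88 (edgeR unadjusted p = 0.242), with the mitochondrial share as a covariate. The counts were low and also spread widely between libraries of a group. Control replicate 4 held 18, and Control replicate 2 held 101, the most in any library.

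Slc4a1 (ENSMUSG00000006574, chromosome 11, 102348824 to 102366203, minus strand, 20 exons) was hardly detected. It held 7 counts in TMA-ARB replicate 8, 1 in TMA-ARB replicate 6 and 0 in the other TMA-ARB libraries, and 0 in all 5 Controls. A count of 0 allows up to 0.307 CPM in TMA-ARB replicate 9 and 0.168 CPM in Control replicate 2, the deepest library. Band 3 mRNA was therefore not detectable even in the library with the most globin. The gene did not pass the filter of the edgeR test. With no filter it was higher under TMA-ARB, opposite in direction to the other 5 genes, at an unadjusted p of 0.0292 (edgeR adjusted p = 0.730), and DESeq2 gave an unadjusted p of 0.283 (adjusted p = 0.995). Both rest on 8 counts, 7 of them in 1 library, so no fold is given.

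**Figure D2:**
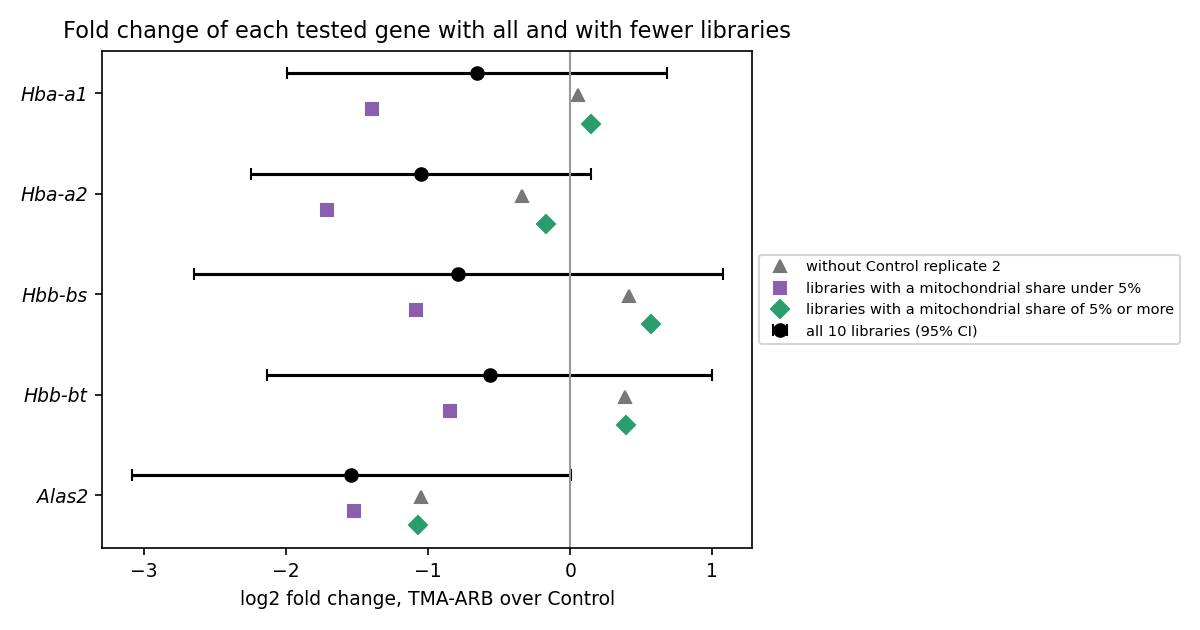
Log2 fold change of TMA-ARB over Control for the 5 tested genes (x axis), with the 95% interval from all 10 libraries and the values without Control replicate 2 and on each side of a 5% mitochondrial share. All 5 intervals include 0, and Hba-a1, Hbb-bs and Hbb-bt lie above 0 without Control replicate 2.

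Within the libraries under a 5% mitochondrial share (TMA-ARB replicates 6 and 7 against Control replicates 1, 2 and 5) the log2 fold changes were -1.39 for Hba-a1, -1.71 for Hba-a2, -1.09 for Hbb-bs, -0.84 for Hbb-bt and -1.52 for Alas2. Within those of 5% or more (TMA-ARB replicates 8, 9 and 10 against Control replicates 3 and 4) they were 0.14, -0.17, 0.57, 0.39 and -1.07 in the same order. The direction for Hba-a1, Hbb-bs and Hbb-bt thus differed between the sides, and that for Hba-a2 and Alas2 did not. The side under 5% holds Control replicate 2. Adding the mitochondrial share (log2) to the fit over all 10 libraries gave -0.46, -0.74, 0.019, 0.070 and -0.88 in that order, each nearer to 0 than without it, and none passed the test. The difference between the sides was not tested.

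As a share of all counts, the 4 globins made up 0.0111%, 0.0452%, 0.0440%, 0.0164% and 0.0161% in TMA-ARB replicates 6 to 10, against 0.0365%, 0.152%, 0.0172%, 0.0317% and 0.0228% in Control replicates 1 to 5. Their exact binomial 95% interval was 0.0106 to 0.0117% in TMA-ARB replicate 6, the lowest library, and 0.150 to 0.154% in Control replicate 2, the highest, so the libraries differed by far more than counting error. The means were 0.0266% ± 0.0166 under TMA-ARB and 0.0520% ± 0.0562 in Control (SD, n = 5 each), a difference of -0.0254 points. The medians were 0.0164% under TMA-ARB and 0.0317% in Control. Without Control replicate 2 the difference of the means was -0.00046 points. Globin mRNA was thus a small part of every library. Leaving it out of the library totals hardly moved the 5 log2 fold changes. Hbb-bs, which moved most, went from -0.7868 to -0.7872. Summed over the 4 genes, Control replicate 2 was 5.32 times the median of the other Controls, and the highest library was 15.5 times the lowest.

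Levels of different genes can be compared only per length. Per kb of the longest coding transcript, Hbb-bs had the highest median over the 10 libraries at 181 CPM per kb, followed by Hba-a2 at 138, Hba-a1 at 76.2, Hbb-bt at 21.5, Alas2 at 0.749 and Slc4a1 at 0. The ranges of Hbb-bs (54.8 to 1154), Hba-a2 (61.0 to 704) and Hba-a1 (24.0 to 350) overlapped between libraries. Within libraries, Hbb-bs was above Hba-a2 in 6 of 10, so their order is not settled, while Hba-a2 was above Hba-a1, and Hba-a1 above Hbb-bt, in 10 of 10. Alas2 reached at most 2.78 CPM per kb, below the lowest Hbb-bt value of 8.08. In order of counts Hbb-bs ranked 173rd among all genes in its highest library and 5298th in its lowest.

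The alpha to beta ratio is unaffected by how reads are divided within a pair. It was 1.21, 0.521, 1.41, 0.673 and 1.65 in TMA-ARB replicates 6 to 10, against 0.966, 0.795, 2.61, 1.51 and 1.35 in Control replicates 1 to 5. The groups overlapped, with TMA-ARB replicates 7 and 9 below every Control and Control replicate 3 above every TMA-ARB library. The means were 1.09 ± 0.482 under TMA-ARB and 1.45 ± 0.710 in Control (SD, n = 5 each), a difference of -0.355. Leaving out each library in turn gave differences of -0.518 (without Control replicate 2) to -0.065 (without Control replicate 3). The difference was -0.212 without TMA-ARB replicate 7, -0.175 in the libraries under 5% mitochondrial share and -0.815 in those of 5% or more. The lowest, in TMA-ARB replicate 7 (95% interval 0.496 to 0.548), and the highest, in Control replicate 3 (2.39 to 2.85), were separated far beyond counting error.

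**Figure D3:**
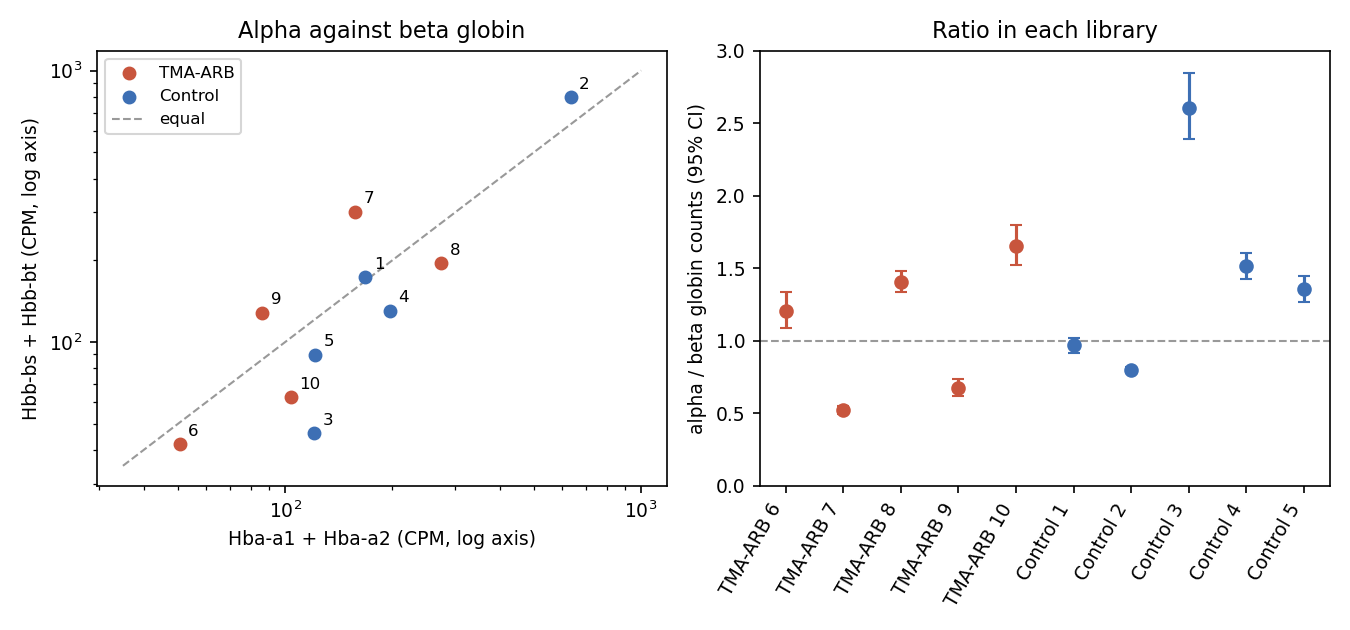
Left, summed beta globin against summed alpha globin in CPM on log axes, 1 point per library numbered by replicate; right, the ratio of alpha to beta counts per library with exact 95% intervals, TMA-ARB before Control. The interval of the ratio includes 1 in Control replicate 1 alone, and the ratio runs from 0.521 in TMA-ARB replicate 7 to 2.61 in Control replicate 3.

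Alpha and beta sums were correlated across the 10 libraries on the log2 scale (Pearson r = 0.854, permutation p = 0.0019, adjusted p = 0.0116 over 6 relations; Spearman rho = 0.830, permutation p = 0.00466, adjusted p = 0.0149). With each group's mean removed r was 0.880 (exact permutation within groups, adjusted p = 0.0217). Without Control replicate 2 and TMA-ARB replicate 6, the libraries farthest from the median, r was 0.545 (exact permutation p = 0.160). Without Control replicate 2 alone it was 0.698. Those libraries hold the most and the least globin. Leaving both out narrows the range, so the lower r cannot show whether the relation rests on them. As a description, r was 0.941 for Hba-a1 with Hba-a2 and 0.966 for Hbb-bs with Hbb-bt, against 0.809 to 0.857 for the alpha with beta pairs. The copies of a pair share reads and all values share the same libraries.

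The copy ratios also differed between libraries. Hba-a2 held 1.10 to 2.01 times the counts of Hba-a1 under TMA-ARB and 1.24 to 2.31 times in Control. Hbb-bs held 4.55 to 9.36 times the counts of Hbb-bt under TMA-ARB and 6.17 to 9.78 times in Control. Both ranges overlapped between the groups, and the part of read division in them was not tested.

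Relative to the globins, Alas2 stood at 8.49, 3.43, 3.14, 0 and 3.65 counts per 1000 globin counts in TMA-ARB replicates 6 to 10, against 6.91, 3.94, 10.2, 3.94 and 10.0 in Control replicates 1 to 5. The 0 allows up to 1.43 per 1000 in TMA-ARB replicate 9. TMA-ARB replicates 7, 8, 9 and 10 lay below every Control, and replicate 6 lay among the Controls. Alas2 averaged 3.74 ± 3.04 per 1000 globin counts under TMA-ARB and 7.00 ± 3.08 in Control (SD, n = 5 each), with no test. Its correlation with the globin sum was r = 0.560 (permutation p = 0.101, adjusted p = 0.202; Spearman rho = 0.515, permutation p = 0.133, adjusted p = 0.266), and 0.330 without the 2 farthest libraries (exact permutation p = 0.509). On untransformed CPM, where Control replicate 2 weighs most, r was 0.898 (permutation adjusted p = 0.0486). Slc4a1, at 0 in 8 of 10 libraries, was left out of the correlations.

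Other genes particular to red cells were mostly near 0. Of 20 genes of the red cell membrane and surface all were in the table, 9 passed the filter and Kel, a blood group antigen gene, was at 0. Epb42, for protein 4.2 of the membrane skeleton, held 23 counts over all libraries and Rhag, for the Rh-associated glycoprotein, 8. Of the 9, 0 passed and 7 were negative, with a median log2 fold change of -0.13 against 0.021 over all genes tested. The summed level was 368 to 1716 CPM under TMA-ARB and 618 to 1590 CPM in Control. Most of that sum was Slc2a1, a glucose transporter gene that many cell types express, at 533 ± 513 CPM under TMA-ARB and 599 ± 360 CPM in Control (SD, n = 5 each). The gene of smallest p was Aqp1, a water channel of red cells that capillary endothelium also makes. Aqp1 measured 46.7, 32.9, 16.2, 18.2 and 15.9 CPM in TMA-ARB replicates 6 to 10, against 47.5, 139, 49.8, 74.0 and 39.8 CPM in Control replicates 1 to 5. Only TMA-ARB replicate 6 reached into the Control range, and the highest value was again Control replicate 2. Its log2 fold change was -1.43 ± 0.40 (SE; unadjusted p = 0.00365; edgeR adjusted p = 0.997), -1.02 without Control replicate 2, -0.93 (edgeR adjusted p = 0.754) among the libraries under 5% mitochondrial share and -1.89 (edgeR adjusted p = 0.0362) among those of 5% or more. Gypc (-0.30 ± 0.31, SE) and Mpp1 (0.16 ± 0.18), of the same list, came next and did not pass. Leaving out TMA-ARB replicate 9 gave -0.12 for Gypc, and leaving out TMA-ARB replicate 6 gave 0.28 for Mpp1.

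Genes of erythroid transcription and maturation were also sparse where they are particular to red cells. Of 26 genes 25 were in the table and 14 passed the filter. Gata1, the master regulator of red cell genes, held 3 counts, Klf1, which drives adult beta globin, 24, and Gfi1b 0. Of the 14, 0 passed and 9 were negative (median log2 fold change -0.096). The gene of smallest p was Tfrc, the transferrin receptor that all dividing cells use to take up iron. Tfrc measured 110, 194, 75.0, 93.8 and 51.0 CPM in TMA-ARB replicates 6 to 10, against 70.9, 45.1, 69.4, 63.0 and 67.4 CPM in Control replicates 1 to 5, so the groups overlapped and Control replicate 2, highest in globin, was lowest in Tfrc. Its log2 fold change was 0.73 ± 0.29 (SE; edgeR adjusted p = 0.997), and 0.39 without TMA-ARB replicate 7. Lmo2 (-0.53 ± 0.28, SE) and Zfpm1 (-0.69 ± 0.40), partners of Gata1 that other cells also express, did not pass.

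Haem synthesis outside Alas2 showed no call. All 11 genes, among them Alas1, the form of the starting enzyme used by other tissues, passed the filter, 0 passed the test, and 5 were negative and 6 positive, with a median log2 fold change of 0.025 beside 0.021 for all genes. Cpox, for a late step of the pathway, had 0.27 ± 0.21, Slc25a39 -0.21 ± 0.17 and Urod -0.22 ± 0.21 (SE; edgeR adjusted p = 0.997 for each). Summed levels were 315 to 477 CPM under TMA-ARB and 359 to 492 CPM in Control, and Control replicate 2 held the lowest Control value.

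Embryonic globins were at or near 0. Of 12 other globin genes Hba-x, Hbb-y, Hbb-bh0, Hbb-bh2 and Hbq1a had 0 counts in all libraries. Hbb-bh1 held 1 count, in a Control, and Hbb-bh3 1, in a TMA-ARB library, and Hbq1b held 4 counts in 2 TMA-ARB libraries. Cygb, for cytoglobin, which fibroblasts make, was the only one to pass the filter, with 2.01 ± 1.31 CPM under TMA-ARB and 1.76 ± 0.986 CPM in Control (SD, n = 5 each; edgeR adjusted p = 0.997). Mb, the myoglobin gene of muscle, held 118 of its 165 counts in Control replicate 1, Ngb, for neuroglobin, held 71 counts in all and Adgb 18.

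Other blood and vessel lists had a narrower range than the globins, with no test of that difference. The highest library was 2.19 times the lowest for the platelet list, 3.72 times for the neutrophil list and 1.73 times for the endothelial list, against 15.5 times for summed globin. Control replicate 2 sets the top of the globin range. Without it summed globin ran from 92.5 CPM in TMA-ARB replicate 6 to 470 CPM in TMA-ARB replicate 8. The lists also sum more genes than the 4 globins. Control replicate 2 ranked first of 10 in the platelet list (145 CPM), the endothelial list (777 CPM) and the list of haemoglobin and haem clearance (10188 CPM), and second in the neutrophil list (269 CPM). Its part in those lists was not tested. The ferritin genes Fth1 and Ftl1 were the largest parts of the clearance list, at means of 4239 and 2937 CPM in Control. For Fth1 alone, Control replicate 2 (4425 CPM) lay below Control replicates 1 (4755 CPM) and 4 (4700 CPM).

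**Figure D4:**
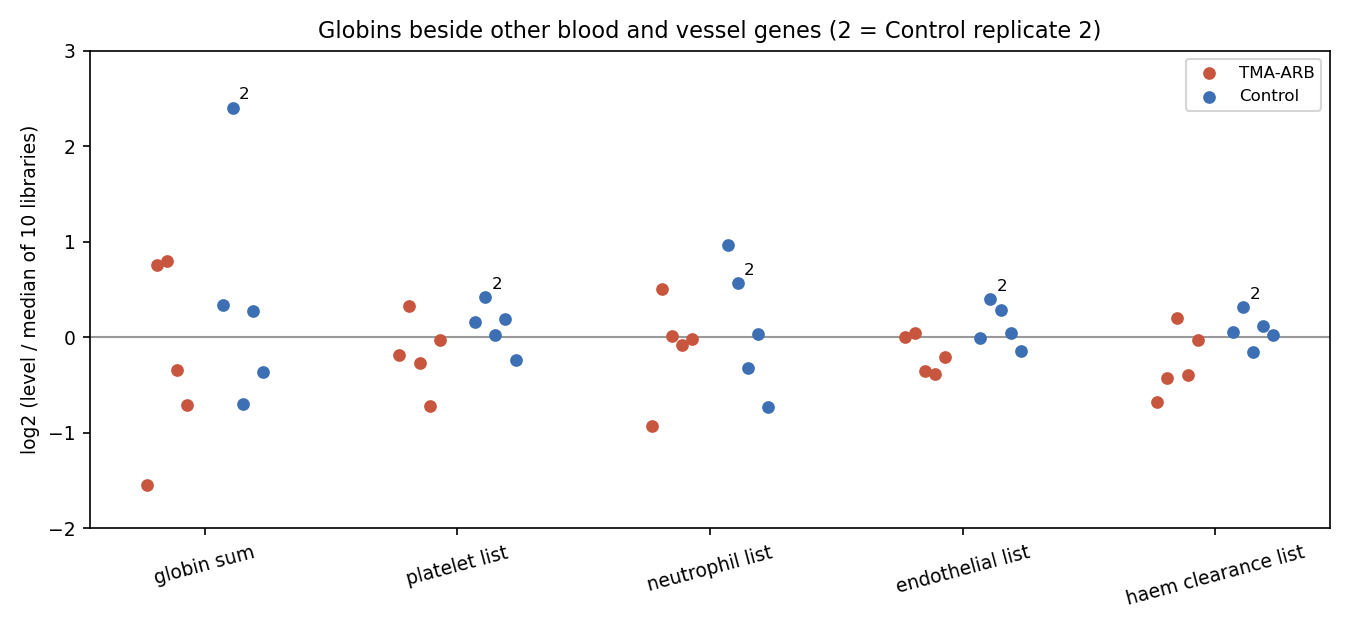
Summed level in each library over the median of the 10 libraries, as log2, for the 4 globins and for lists of platelet, neutrophil, endothelial and haem clearance genes, TMA-ARB left of Control in each column. Globins span from -1.55 to 2.40, and Control replicate 2, marked 2, lies at 0.42, 0.57, 0.40 and 0.32 in the other lists.

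Platelet genes gave 6 of 14 measured members, 0 passing, 3 negative and a median log2 fold change of -0.078, with sums of 66.1 to 136 CPM under TMA-ARB and 91.9 to 145 CPM in Control. Itgb3, an integrin of platelets and other cells, had -0.58 ± 0.35, Ppbp, a platelet chemokine gene, -0.45 ± 0.39 and Gp1ba 0.84 ± 0.94 (SE; edgeR adjusted p = 0.997 for each). Itgb3 was -0.25 without Control replicate 2, Ppbp -0.19 when TMA-ARB replicate 9 was left out, but -0.81 when it was TMA-ARB replicate 7, and Gp1ba 0.29 without TMA-ARB replicate 9. The correlation of the list's mean with summed globin was r = 0.183 (permutation p = 0.602, adjusted p = 0.719; Spearman rho = 0.236, permutation p = 0.515, adjusted p = 0.618), and -0.443 without the 2 farthest libraries (exact permutation p = 0.300).

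Neutrophil genes gave 8 of 13 measured, 0 passing, 6 negative and a median of -0.14, with sums of 95.5 to 257 CPM under TMA-ARB and 110 to 356 CPM in Control. Csf3r, the receptor for granulocyte colony-stimulating factor, had -0.59 ± 0.32, Retnlg -0.59 ± 0.53 and Mmp8, for neutrophil collagenase, 0.65 ± 0.64 (SE; edgeR adjusted p = 0.997 for each). Without Control replicate 1 Csf3r was -0.26 and Retnlg -0.34, without Control replicate 2 Retnlg was -0.33, and without TMA-ARB replicate 8 Mmp8 was -0.20. Ly6g, a defining marker, held 14 counts in all, and Elane 1. This list alone among those set against the globin sum gave an adjusted p under 0.05 (r = 0.753, permutation p = 0.0115, adjusted p = 0.0346; Spearman rho = 0.830, permutation p = 0.00496, adjusted p = 0.0149). On untransformed CPM r was 0.499 (permutation adjusted p = 0.175). On log2 CPM the relation was r = 0.739 with each group's mean removed (exact permutation adjusted p = 0.0533). It was 0.598 without Control replicate 2 and TMA-ARB replicate 6 (exact permutation p = 0.116) and 0.721 without Control replicate 2 alone. Leaving both out narrows the globin range, so the lower r cannot show whether the relation rests on them.

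Endothelial genes were all measured (20 of 20), 15 negative, with a median of -0.32 and 0 passing, and 2 of 20 had an unadjusted p under 0.05, both lower under TMA-ARB, beside 1.66% of all genes lower at that level. Flt1, a VEGF receptor gene, had -0.56 ± 0.22, Plvap, a gene of capillary diaphragms, -0.51 ± 0.21 and Mmrn2 -0.45 ± 0.22 (SE; edgeR adjusted p = 0.997 for each). Summed levels were 450 to 606 CPM under TMA-ARB and 531 to 777 CPM in Control. Their mean had r = 0.131 with summed globin (permutation p = 0.719, adjusted p = 0.719; Spearman rho = 0.018, permutation p = 0.973, adjusted p = 0.973), and r was -0.349 without the 2 farthest libraries (exact permutation p = 0.402), so no relation with the vessel markers was detected. The mitochondrial share had r = -0.250 with it (permutation p = 0.489, adjusted p = 0.719; Spearman rho = -0.285, permutation p = 0.426, adjusted p = 0.618) and -0.347 without those libraries (exact permutation p = 0.398).

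Genes of haemoglobin and haem clearance, which bind free haemoglobin, break haem down and store its iron, were all measured (14 of 14). Of these 11 were negative, with a median of -0.17, and 0 passed. Lrp1, a receptor for the haem and haemopexin complex, had -0.42 ± 0.22, Fth1, the ferritin heavy chain gene, -0.40 ± 0.21 and Blvra, for biliverdin reductase, 0.36 ± 0.24 (SE; edgeR adjusted p = 0.997 for each). Lrp1 was -0.26 without Control replicate 2 and Blvra 0.18 without TMA-ARB replicate 7. Hmox1, which encodes inducible haem oxygenase, had -0.47 ± 0.54 (SE), and Cd163, the macrophage receptor for haemoglobin bound to haptoglobin, 1.14 ± 0.81 at 196 counts in all; this pair was named after its values were seen. Of the epithelial list, 0 of 7 passed and 6 were positive (median 0.77), with Krt8 at 1.23 ± 0.42, Krt7 at 1.17 ± 0.69 and Krt19 at 2.03 ± 1.42 (SE). Without TMA-ARB replicate 6 these were 0.71, 0.65 and 0.0058, and Krt19 was 3.04 without Control replicate 3.

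The genes whose pattern over the 10 libraries was most like summed globin were, among 13470 genes, Adipor1 (r = 0.961), Gpihbp1 (0.958), P4hb (0.937), Ccdc50 (0.926), Eci2 (0.898), Atg12 (0.892), Gla (0.889), Sdc4 (0.882), Abhd5 (0.877) and Il13ra1 (0.874). Adipor1 encodes an adiponectin receptor, and Gpihbp1 a protein that holds lipoprotein lipase on capillary endothelium. Without Control replicate 2 their r ran from 0.794 to 0.951. Adipor1 spanned little: 195 CPM in Control replicate 2 and a median of 152 CPM in the other libraries. Gpihbp1 was at 41.5 CPM in Control replicate 2, against a median of 16.8 and a highest value of 24.8 CPM in the others. These were the closest of many genes over few libraries, so they are given as a description with no test.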

How the data were processed

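Poly-A RNA was made into strand-marking NEBNext libraries, per the labels' protocols. The authors deposited estimated counts per Ensembl gene, named with Salmon and mm10 per the submitters' processing notes; the sources used here do not give the Salmon version, annotation or strand setting. All values were whole, so rounding changed 0 of them, and 0 columns were unmatched. Salmon divides reads among similar transcripts. Groups came from the sample titles.

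EdgeR 4.0.16 in R 4.3.3 (TMM scaling, default filter, robust quasi-likelihood F test, Benjamini-Hochberg adjustment over 14063 genes at 0.05) was the main test. CPM was computed here with TMM-scaled totals; log2 CPM used a prior count of 2. The SE is the absolute log2 fold change over the square root of F. Globin sums, shares and ratios were described without a test. The group difference in mitochondrial share used exact permutation over 252 arrangements (smallest p 0.00794). Correlations used 100000 permutations, all 14400 arrangements within groups, or all orders of 8 libraries. Shares have exact 95% binomial intervals and a 0 allows 3 counts; both cover counting error only.

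Alternatives were DESeq2 1.42.0, limma 3.58.1 voom with sample weights, RLE scaling, globins or mitochondrial genes left out, no filter, 5 CPM, the mitochondrial share as covariate or a 5% line, an adjusted p under 0.10, and each library left out. The edgeR step was tested on simulated data. The members and the 9 gene lists were chosen with earlier results of these data known. Named genes were all members, the 3 of smallest p in each list, every other globin with counts, and the 10 most alike in pattern with a mean of at least 1 CPM. Ahsp was not analysed here. Epb41 and Epb42 were matched by identifier. Coordinates and coding sequences are from GENCODE M21 and promoters from RefSeq, both on GRCm38. Figures used Python 3.11.15 and matplotlib 3.10.9.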

Additional observations from a re-analysis of the deposited data

Results flagged for a closer look

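Control replicate 2 stood far from the other 4 Controls in 9 red cell measures, by a gap to the nearest library of more than 0.71 of the group's range. It held 245 CPM of Hba-a1 (next Control 77.1), 390 of Hba-a2 (120), 725 of Hbb-bs (156), 74.1 of Hbb-bt (18.2) and 5.66 of Alas2 (2.36). Summed alpha globin was 635 CPM there (197), beta 799 (174), all 4 globins 1434 (342) and their share of counts 0.152% (0.0365%). These 9 values share the same counts and are not separate observations. Slc4a1 in TMA-ARB replicate 8 was at 0.516 CPM, 7 counts, with 0.0604 CPM in the next library. In all 48 groups of 5 values were examined and 10 were marked. Chance marks about 1 in 20 where values are normally distributed. CPM values, and groups with many 0 values, need not be, so the chance rate here is not known.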

How the results depend on the processing

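No paired analysis was possible because replicate numbers run from 1 to 10 and none is shared between the groups. Of the 6 genes 0 were called under any alternative that gave them a value. The count over all genes, 0 in edgeR, was 2 by DESeq2 and 4 in libraries of 5% mitochondrial share or more. Hba-a2 and Alas2 kept their negative sign in all 21 and 20 alternatives (Alas2 had no value at a mean of 5 CPM). Hba-a1 turned in 2 of 21 and Hbb-bs and Hbb-bt in 3 of 21. These counts include the adjusted p under 0.10, which reuses the main fit, so no sign could turn there. Without Control replicate 2 they were 0.051, 0.41 and 0.39, and at 5% mitochondrial share or more 0.14, 0.57 and 0.39. With the log2 mitochondrial share as covariate Hbb-bs was 0.019 and Hbb-bt 0.070. Leaving out each library gave -1.15 to 0.051 for Hba-a1, -1.44 to -0.34 for Hba-a2, -1.26 to 0.41 for Hbb-bs, -0.90 to 0.39 for Hbb-bt and -1.84 to -1.05 for Alas2. The mitochondrial share difference ran from 2.69 to 8.38 points, with exact permutation p = 0.0397 without TMA-ARB replicate 6.

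The alpha with beta correlation was 0.545 without the 2 libraries farthest from the median, and globin with Alas2 was 0.898 on untransformed CPM. Globin with neutrophil genes was 0.499 on untransformed CPM (permutation adjusted p = 0.175), 0.739 with group means removed and 0.598 without those 2 libraries. With platelet genes it was -0.443 and with endothelial genes -0.349 without them, and -0.032 for endothelial genes with group means removed. On untransformed CPM these were 0.603 (permutation adjusted p = 0.115) and 0.577 (permutation adjusted p = 0.124).

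For named list genes the same alternatives were chosen after seeing the data. At under 5% mitochondrial share Gypc was 0.22, Ppbp 0.14, Gp1ba -2.36 and Mmp8 -0.26, and at 5% or more Cygb was -1.16 and Krt19 -0.43. Mmp8 was -0.19 with sample weights. Leaving out each library gave -0.20 (without TMA-ARB replicate 8) to 0.89 for Mmp8 and -0.17 (without TMA-ARB replicate 6) to 0.58 for Cygb. Gp1ba was -0.40 with the covariate. The cause was not tested. Slc4a1 is limited by counts, and Alas2 by low counts together with the spread between libraries.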
